A study of Homo sapiens with 6 samples.

Results

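The 56 genes described here build and control the DNA replication machinery: the proteins that mark origins, load and start the replicative helicase, copy the DNA and join its fragments, together with the E2F and RB transcription regulators that time their expression. They were taken by symbol from the 30735 genes listed for each sample, with earlier results of these data known, and all 56 were found. PANC-1, an established human pancreatic cancer cell line, was transfected in serum-free medium using Lipofectamine 3000 with siRNA against CD73 or with a negative control siRNA, and 3 samples of each were sequenced as total RNA. A single siRNA product was given for CD73, so both groups differ by 1 reagent in 1 cell line. The study used this comparison to look for genes downstream of CD73, the cell-surface enzyme encoded by NT5E that makes adenosine from AMP.

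DNA replication is limited to once per cell cycle by separating 2 steps. In G1 the origin recognition complex (ORC), CDC6 and CDT1 load the MCM2-7 helicase onto DNA, and in S phase the kinases CDC7-DBF4 and CDK2-cyclin A, with CDC45 and the GINS complex, turn the loaded helicase into a moving fork. Many of these genes are transcribed by E2F1, E2F2 and E2F3, which RB1 holds in check until cyclin-dependent kinases phosphorylate it. E2F7 and E2F8 repress the same kind of promoter later in S phase, and RBL1 and RBL2 are the RB1 relatives p107 and p130.

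Words bound by E2F proteins were looked for in the promoter DNA of these genes. RefSeq windows of 250 bases before and 50 after a start site (GRCh38.p14) were held for 48 of the 56 genes, and in 41 the start lay within 200 bases of a principal GENCODE 29 transcript start. An E2F word (TTTCCCGC, TTTGGCGC, TTTCGCGC or TTTGCCGC, either strand) was present in 21 of these 41 windows (51.22%), against 561 of 12684 windows over all genes (4.42%). CCAAT, counted on both strands, was in 24 of 41 (58.54%), against 37.45% of all windows. TTTGAA, the core of the CHR element of late cell cycle genes, was in 1 of 41 (2.44%), that of RBL2, against 11.72% of all. A match shows only that these letters are in the window, and the windows of all genes were not matched for base composition. The E2F1 promoter is shown because E2F1 stood furthest from its controls relative to its error in the fit without replicate number. In the fit blocked by replicate number RB1 stood furthest, but no window at a principal start was held for RB1. Its 250 bases upstream of the start site (chr20:33686386-33686635, reverse strand, written 5′ to 3′) held 2 E2F words and 3 CCAAT words, all in capitals.
E2F1: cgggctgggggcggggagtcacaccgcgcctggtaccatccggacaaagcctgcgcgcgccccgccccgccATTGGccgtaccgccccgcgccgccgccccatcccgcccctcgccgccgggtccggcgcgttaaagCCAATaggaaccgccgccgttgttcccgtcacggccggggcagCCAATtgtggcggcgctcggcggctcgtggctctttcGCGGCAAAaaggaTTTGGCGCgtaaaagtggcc
The next sequences show the E2F word, in capitals, with 10 bases on each side, in the promoters of the sliding clamp, the helicase loader, a helicase subunit, the p107 gene and a fork protection gene whose values are given further on.
PCNA, chr20:5126664-5126691, reverse strand: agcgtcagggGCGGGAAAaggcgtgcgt
CDC6, chr17:40287876-40287903, forward strand: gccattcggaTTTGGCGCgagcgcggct
MCM6, chr2:135876578-135876605, reverse strand: gggctttgcaTTTGGCGCgaaatccctt
RBL1, chr20:37095996-37096023, reverse strand: tttcgcgcgcTTTGGCGCaggtggttgt
TIPIN, chr15:66356734-66356761, reverse strand: cccgcacggaTTTGGCGCcaaacgctgc
Counted from the start site, with upstream negative, the first base of the capitals was at -59 in PCNA, 7 in CDC6, -152 in MCM6, -16 in RBL1 and -66 in TIPIN. MCM6 held 4 E2F words in its window, in 2 overlapping pairs on opposite strands, and the words of TIPIN likewise overlapped. The flank printed for RBL1 begins with its other E2F word, TTTCGCGC, in lower case.

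Expression was deposited as 1 normalized value per gene, read here as RPKM (reads scaled to exon length in kilobases and to the library total), with library totals of 15009113 to 16836207 reads per sample, and behind the members' values stood 193 to 7530 reads per sample. The length was read as that of all annotated exons of a gene merged. Any order of level between different genes given below therefore depends on this length, while ratios of the group means do not. Differences on log2(RPKM + 1), used below, depend on it through the added 1, mostly at low levels. The filter of 1 RPKM depends on it as well. NT5E itself, as a check of the labels, was at 3.36, 6.85 and 8.22 RPKM in CD73 siRNA replicates 1 to 3 and at 13.96, 13.9 and 17.1 RPKM in the controls, so that no sample went against its label. The markers of acinar, endocrine, leukocyte and endothelial cells that were listed stayed under 1 RPKM in all 6 samples. PRSS1, CPA1, PNLIP, SST, CD3E and the fibroblast marker DCN were not listed and had no value. Only CEL and CTRB1 thus stood for acinar cells. Of the ductal and epithelial markers, KRT8, KRT18, KRT19 and SOX9 were present in every sample, while KRT7 stayed under 1 RPKM. EPCAM and CDH1 were low in both groups, at 0.42 to 1.71 RPKM, and under 1 RPKM in replicate 3 of each. KRT8 and KRT18 were called lower after CD73 siRNA, and these keratins carried the sum of the list, 125.0 to 157.5 RPKM against 187.6 to 299.4 RPKM. SOX9 went the other way without being called, at 53.6 to 55.5 RPKM against 45.4 to 51.8 RPKM. The part of these markers in the values of the members was not tested. COL1A1 and COL3A1, listed among fibroblast markers, were also present in both groups, at 6.12 to 19.1 RPKM, with COL1A2, LUM and PDGFRB under 1 RPKM.

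As a set, the replication and E2F genes differed little between the groups. E2F1 was called without regard to replicate number, and RB1 was called as well when samples were blocked by that number. Group differences were taken on log2(RPKM + 1) with limma over 12527 genes, and a gene was counted as called at an unadjusted p below 0.01. All 56 passed the filter of 1 RPKM in at least 3 samples. E2F1 was higher after CD73 siRNA, so 1 of 56 was called higher, where 1.82% of all tested genes were called higher. None of the 56 was called lower, where 1.31% of all tested genes were, and RB1, at an unadjusted p of 0.0142 in limma, lay nearest to it. Under an unadjusted p of 0.05 in limma there were 2 members higher and 2 lower, against 7.22% and 4.90% of all tested genes. These counts and all intervals are from the fit without a block for replicate number, the fit planned as the main one. No intervals were computed with that block, although the numbers were taken to pair the samples. With that block, E2F1, E2F8, RBL1, TIPIN, CDC7, CDC45 and GINS2 were higher under an unadjusted p of 0.05 in limma. RB1, E2F3, MCM7, ORC2 and RPA2 were lower under it. The share of all tested genes under 0.05 with the block was not computed. At 0.01 the block raised the calls over all tested genes from 392 to 948. The 0.05 list is therefore not read as a result about these members. Without the block, no member passed an adjusted p of 0.05 in limma, the lowest being 0.303, and over all tested genes 1 did.

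The median log2 difference over the members was 0.006, with 28 above 0 and 28 below, and over all tested genes it was 0.009. The ratio of the group means, as CD73 siRNA in percent of control, ran from 69.5% for RB1 to 138.9% for TIPIN. In 50 of the 56 the 95% interval of the difference lay wholly within 1.5-fold in either direction (89.3%), against 68.9% of all tested genes. These genes were also better expressed than most, with a median level of 15.18 RPKM against 6.90 RPKM, and 50 of 56 lay above the median of all tested genes. The widest bounds among those 50 were -0.49 and 0.57 on the log2 scale. RFC2, E2F1, E2F8, RB1, RBL1 and TIPIN were the 6 whose interval reached past 1.5-fold. In bulk RNA, a change in the share of cells in S phase and a change in the RNA per cell cannot be told apart.

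**Figure D1:**
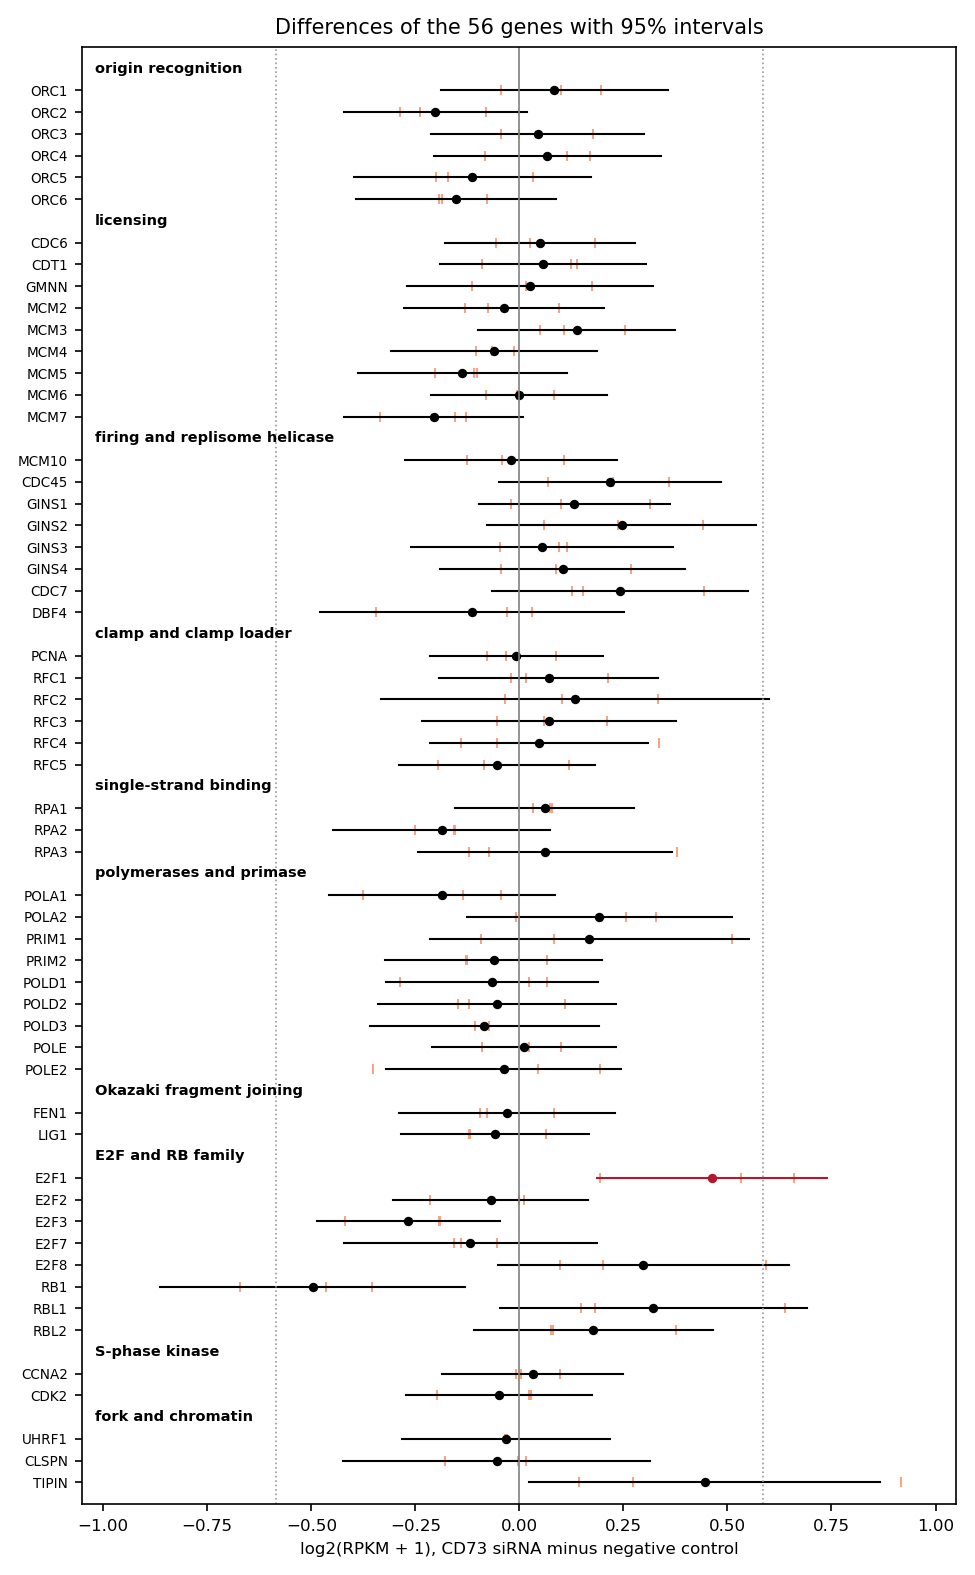
Difference of each of the 56 genes on log2(RPKM + 1), CD73 siRNA minus negative control (points), with limma's 95% interval (lines) and the 3 differences within replicate number (small ticks), grouped by role. E2F1, in red, is the gene past an unadjusted p of 0.01 in limma without a replicate block, the fit that also gave the intervals. The dotted lines mark 1.5-fold, and 52 of the 56 intervals include 0.

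On log2(RPKM + 1) the E2F and RB family held the 2 largest differences, in opposite directions, although with 0.1 added in place of 1 TIPIN (0.50) exceeded E2F1 (0.47). E2F1 mRNA, for the activator that drives S-phase entry, was at 42.1, 39.9 and 43.9 RPKM in CD73 siRNA replicates 1 to 3 and at 26.3, 34.8 and 30.0 RPKM in the negative controls. Every CD73 siRNA sample lay above every control, and the means were 41.9 ± 1.98 and 30.3 ± 4.26 RPKM (SD, n = 3 each). The log2 difference was 0.46 (standard error 0.12, 95% interval 0.19 to 0.74), with an unadjusted p of 0.0047 and an adjusted p of 0.303 in limma. The call did not hold without either CD73 siRNA replicate 1, CD73 siRNA replicate 3, control replicate 1 or control replicate 3. The log2 differences were then 0.46, 0.43, 0.37 and 0.46, with an unadjusted p of 0.0162, 0.0183, 0.0131 and 0.0152 in limma. E2F1 (ENSG00000101412) is a reverse-strand gene at chr20:33675683-33686404 (GRCh38, GENCODE 29).

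RB1, the gene of the retinoblastoma protein that binds and silences activator E2Fs, was the member furthest in the other direction. It was at 7.87, 11.7 and 11.3 RPKM after CD73 siRNA and at 13.1, 16.5 and 14.7 RPKM in the controls. The groups did not overlap, CD73 siRNA replicate 1 being the lowest sample, and the means were 10.3 ± 2.09 and 14.8 ± 1.67 RPKM (SD, n = 3 each). The log2 difference was -0.50 (standard error 0.16, 95% interval -0.86 to -0.13), with an unadjusted p of 0.0142 and an adjusted p of 0.342 in limma. When samples were blocked by replicate number, the unadjusted p was 0.00128 and the adjusted p 0.113, so RB1 was called only in the paired fit. In that fit 3.30% of all tested genes were called lower and 4.27% higher, and among the members RB1 was called lower and E2F1 higher, with an adjusted p of 0.113 also for E2F1. Without CD73 siRNA replicate 1 the difference of RB1 was -0.33. RB1 (ENSG00000139687) is a forward-strand gene at chr13:48303726-48599436.

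E2F3, an activator like E2F1, differed in the opposite direction from it. Its levels were 13.2, 14.1 and 14.3 RPKM after CD73 siRNA against 17.9, 16.3 and 16.5 RPKM in the controls. The groups did not overlap, but the log2 difference of -0.27 (95% interval -0.49 to -0.05) was not called, with an adjusted p of 0.357 in limma. E2F2, the other activator, was at 7.28, 7.79 and 8.29 RPKM after CD73 siRNA and at 8.61, 7.72 and 8.30 RPKM in the controls. Its groups overlapped, with a log2 difference of -0.07 (95% interval -0.30 to 0.17).

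The repressors E2F7 and E2F8 were also not called. E2F8 was at 7.26, 7.64 and 7.40 RPKM after CD73 siRNA and at 4.47, 7.08 and 6.31 RPKM in the controls, a log2 difference of 0.30 (95% interval -0.05 to 0.65). The groups of E2F8 did not overlap, yet without control replicate 1, its lowest sample, the difference was 0.13. E2F7 was at 10.2, 8.21 and 8.45 RPKM after CD73 siRNA and at 11.3, 8.57 and 9.54 RPKM in the controls, and its groups overlapped.

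The RB1 relatives had the opposite sign to RB1. RBL1, encoding p107, was at 10.1, 11.1 and 9.03 RPKM after CD73 siRNA against 6.15, 9.69 and 8.06 RPKM in the controls, a log2 difference of 0.32 (95% interval -0.05 to 0.69) with overlapping groups. RBL2, encoding p130, was at 6.45, 6.58 and 6.80 RPKM after CD73 siRNA against 4.74, 6.19 and 6.37 RPKM in the controls, a log2 difference of 0.18 (95% interval -0.11 to 0.47) with groups that did not overlap. Neither was called, and 18.2% of the exon bases of RBL2 are shared with genes on the other strand, AKTIP among them, whose reads cannot be told apart where counting ignores strand. Control replicate 1 was the lowest sample of both, and without it the difference was 0.17 for RBL1 and 0.06 for RBL2.

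**Figure D2:**
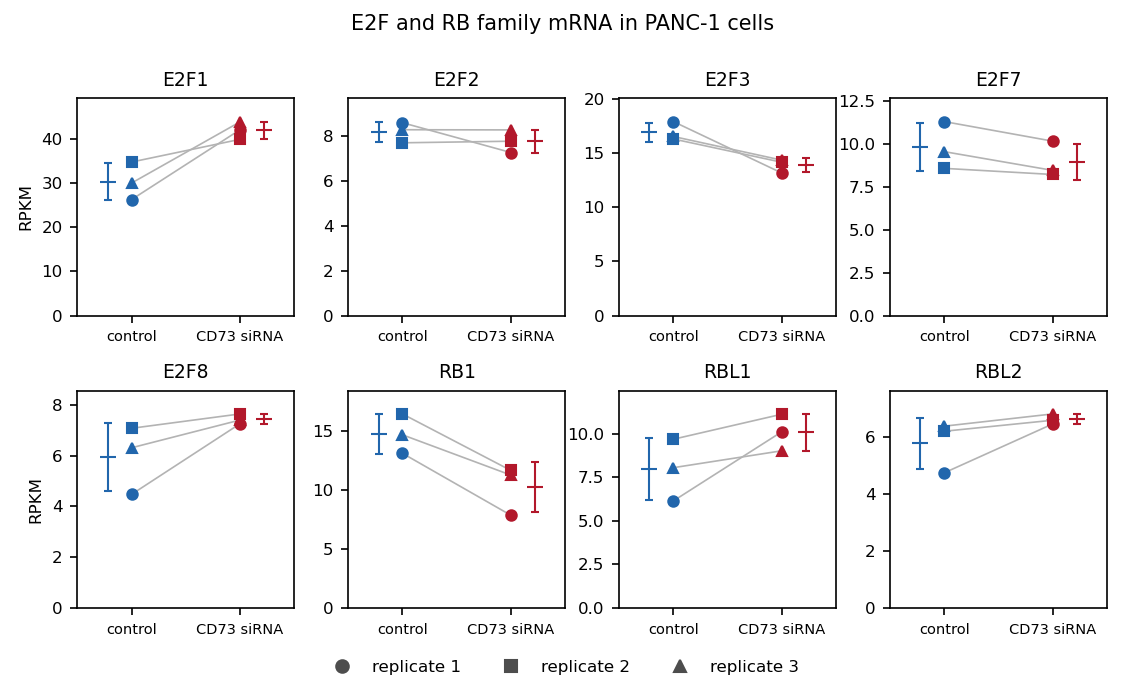
RPKM of the 8 E2F and RB family genes in negative control (blue) and CD73 siRNA (red) samples, with grey lines joining samples of the same replicate number and bars giving the mean ± SD of 3. E2F1 lies between 39.9 and 43.9 RPKM after CD73 siRNA and between 26.3 and 34.8 RPKM in the controls, and RB1 lies lower after CD73 siRNA in each of the 3 pairs.

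In level, E2F1 was the most abundant of the 5 E2F genes described here in all 6 samples, with a mean of 36.1 RPKM over the samples. It was followed by E2F3 (15.4 RPKM), E2F7 (9.37 RPKM), E2F2 (8.0 RPKM) and E2F8 (6.69 RPKM), and this order held in each sample. Among the pocket protein genes RB1 came first in 5 of 6 samples, the exception being CD73 siRNA replicate 1, where RBL1 was higher, and RBL2 was last in all 6.

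The genes that recognise origins were near their control levels, with 3 of 6 above 0 and none called. ORC2, a core ORC subunit, had the smallest p of this group, and was at 13.5, 13.7 and 12.6 RPKM after CD73 siRNA and at 16.1, 14.5 and 15.6 RPKM in the controls. Its groups did not overlap, and the log2 difference was -0.20 (95% interval -0.42 to 0.02). ORC3, the most abundant subunit mRNA, was at 23.8, 20.4 and 19.1 RPKM after CD73 siRNA and at 20.9, 21.1 and 19.2 RPKM in the controls, with overlapping groups. The groups of ORC6, the small subunit, did not overlap either, with a log2 difference of -0.15 (95% interval -0.39 to 0.09). ORC3 was above every other ORC subunit in all samples and ORC4 below (4.77 RPKM on average), while ORC2 and ORC1 changed places in 2 of 6 samples.

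The licensing genes covered the loader and the helicase it loads, and none of the 9 was called. CDC6, the ATPase that recruits the helicase, was at 27.8, 24.7 and 26.1 RPKM after CD73 siRNA and at 24.4, 24.2 and 27.2 RPKM in the controls, a log2 difference of 0.05 (95% interval -0.18 to 0.28). CDT1, its partner in loading, was at 15.7, 15.2 and 16.7 RPKM after CD73 siRNA and at 16.8, 13.7 and 15.3 RPKM in the controls, a log2 difference of 0.06 (95% interval -0.19 to 0.31). Both overlapped between groups, as did GMNN, the gene of the CDT1 inhibitor geminin (0.03, 95% interval -0.27 to 0.32).

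Of the 6 helicase subunits, MCM7 had the largest difference. It was at 60.9, 60.7 and 62.1 RPKM after CD73 siRNA and at 77.1, 67.7 and 68.0 RPKM in the controls, with groups that did not overlap and a log2 difference of -0.21 (95% interval -0.42 to 0.01, adjusted p = 0.426 in limma). MCM3 differed by 0.14 (95% interval -0.10 to 0.38) and MCM5 by -0.14 (95% interval -0.39 to 0.11), and MCM2, MCM4 and MCM6 by less than either, so the subunits did not share a direction. Summed over MCM2 to MCM7, the level was 295.3, 291.2 and 305.5 RPKM after CD73 siRNA and 308.2, 305.1 and 309.2 RPKM in the controls. Although the complex holds 1 copy of each subunit, RPKM values were unequal. MCM6 (32.01 RPKM) and MCM5 (22.3 RPKM) lay below the other 4 in all 6 samples, and MCM7 and MCM3, both with a mean of 66.1 RPKM, each led the other in 3 samples. The merged exon length was 7338 bases for MCM5 and 4118 for MCM6. MCM5 had 2314 to 3076 reads per sample and MCM6 1977 to 2263, so the place of MCM5 below MCM6 depends on that length. For MCM2, 23.6% of exon bases are shared with genes of the other strand, TPRA1 among them.

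Of the 8 genes for firing none was called, and 6 had differences above 0, as had 52.0% of all tested genes. Their median was 0.12, but 0.06 without control replicate 1, and within pairs 1 to 3 it was 0.25, 0.01 and 0.10. CDC45, which completes the active helicase with MCM2-7 and GINS, was at 17.2, 19.1 and 19.4 RPKM after CD73 siRNA and at 14.6, 18.1 and 14.9 RPKM in the controls, a log2 difference of 0.22 (95% interval -0.05 to 0.49). CDC7, the kinase that phosphorylates the MCM helicase, was at 34.1, 38.3 and 34.6 RPKM after CD73 siRNA and at 24.8, 34.4 and 31.6 RPKM in the controls, a log2 difference of 0.24 (95% interval -0.07 to 0.55). In both, control replicate 2 lay above the lowest CD73 siRNA sample, so the groups overlapped. DBF4, the activating subunit of CDC7, differed by -0.11 (95% interval -0.48 to 0.25) and MCM10, an initiation factor, by -0.02 (95% interval -0.28 to 0.24). The 4 GINS genes differed by 0.05 to 0.25, and GINS2, the highest of these, was at 10.9, 11.8 and 10.6 RPKM after CD73 siRNA and at 7.74, 11.3 and 8.80 RPKM in the controls. GINS1 and GINS2 were above GINS3 and GINS4 in all samples, the last of these having the lowest level of the 56 genes (2.79 RPKM).

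PCNA, the sliding clamp and a standard marker of proliferating cells, was the most abundant of the 56 and one of the closest to its control. It was at 128.1, 116.1 and 127.1 RPKM after CD73 siRNA and at 120.4, 122.6 and 129.9 RPKM in the controls, a log2 difference of -0.01 (95% interval -0.21 to 0.20). Only 1.69% of tested genes were above it in level. RFC2, a subunit of the complex that loads the clamp, had the smallest p of its group and the largest error of all members (standard error 0.20). It was at 24.0, 28.99 and 20.1 RPKM after CD73 siRNA and at 18.9, 29.7 and 18.6 RPKM in the controls, replicate 2 being the highest of each group. The other RFC genes differed by -0.05 to 0.07, and none was called.

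The single-strand binding protein RPA has 3 subunits, none of which was called. RPA1, the large subunit and the most abundant in all samples, was at 50.7, 45.3 and 47.0 RPKM after CD73 siRNA and at 48.0, 44.3 and 44.7 RPKM in the controls. RPA2 had the smallest p of the 3, with 39.6, 32.9 and 35.4 RPKM after CD73 siRNA and 44.1, 36.8 and 42.2 RPKM in the controls. The groups of RPA2 overlapped and its log2 difference was -0.19 (95% interval -0.45 to 0.07), against 0.06 for both RPA1 and RPA3.

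Among the 9 polymerase and primase genes, differences ran from -0.19 to 0.19 and none was called. POLA1, the catalytic subunit of polymerase α that starts new strands, marked the low end, with 5.93, 7.13 and 5.73 RPKM after CD73 siRNA and 6.61, 7.38 and 7.74 RPKM in the controls. POLA2, its accessory subunit, marked the high end at 0.19 (95% interval -0.13 to 0.51), and 35.1% of its exon bases lie also in another annotated gene of the same strand. POLD2, of the lagging-strand polymerase δ, was the most abundant at 37.9, 44.1 and 39.4 RPKM after CD73 siRNA and 42.1, 48.1 and 36.5 RPKM in the controls. POLE, the catalytic subunit of the leading-strand polymerase ε, differed by 0.01 (95% interval -0.21 to 0.23).

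The genes that join Okazaki fragments differed by less than their standard errors. FEN1, the nuclease that trims the flaps, was at 42.1, 35.7 and 40.9 RPKM after CD73 siRNA and at 45.0, 37.8 and 38.6 RPKM in the controls. LIG1, the ligase that seals the nick, was at 7.45, 7.90 and 7.67 RPKM after CD73 siRNA and at 8.19, 7.52 and 8.41 RPKM in the controls. Their log2 differences were -0.03 (95% interval -0.29 to 0.23) and -0.06 (95% interval -0.28 to 0.17).

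**Figure D3:**
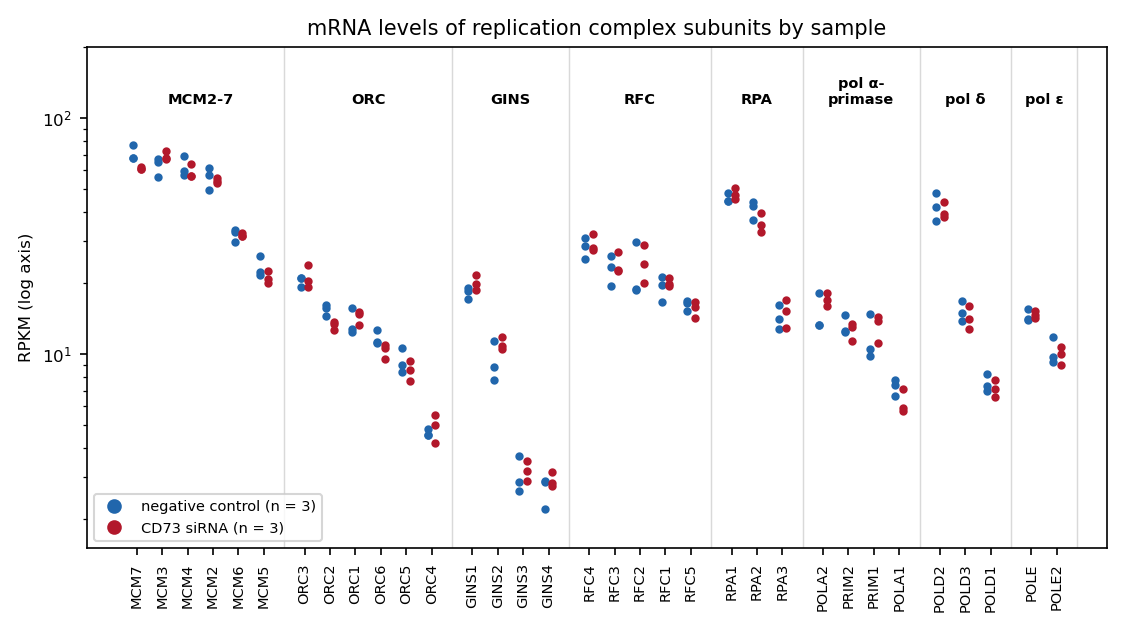
RPKM on a log axis for the subunits of 8 replication complexes, with 1 point per sample (blue, negative control, n = 3; red, CD73 siRNA, n = 3). Subunits of 1 complex span up to several-fold, as from 2.79 to 19.1 RPKM within GINS on average, and the 2 colours overlap for all subunits but MCM7, ORC2 and ORC6.

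The S-phase kinase genes were close to their controls, with narrow intervals. CCNA2, encoding cyclin A2, was at 45.5, 43.8 and 46.6 RPKM after CD73 siRNA and at 45.7, 40.9 and 46.5 RPKM in the controls, a log2 difference of 0.03 (95% interval -0.19 to 0.25). CDK2, its catalytic partner, was at 14.1, 12.5 and 13.7 RPKM after CD73 siRNA and at 13.8, 14.5 and 13.5 RPKM in the controls, a log2 difference of -0.05 (95% interval -0.27 to 0.17). For CDK2, 16.8% of exon bases are shared with genes of the other strand.

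TIPIN, whose product protects the fork together with TIMELESS, had the highest ratio of group means. It was at 9.96, 10.2 and 8.30 RPKM after CD73 siRNA and at 4.80, 8.30 and 7.42 RPKM in the controls. CD73 siRNA replicate 3 and control replicate 2 were almost level, so the groups were separate by a small margin. The log2 difference was 0.44 (standard error 0.18, 95% interval 0.02 to 0.87), with an adjusted p of 0.394 in limma, and 0.24 without control replicate 1. A pseudogene of RPL9 covers 21.0% of the exon bases of TIPIN on the same strand. UHRF1, which reads hemimethylated DNA behind the fork, was at 17.9, 18.6 and 21.0 RPKM after CD73 siRNA and at 18.3, 19.1 and 21.4 RPKM in the controls, a log2 difference of -0.03 (95% interval -0.28 to 0.22). CLSPN, the checkpoint mediator claspin, differed by -0.06 (95% interval -0.42 to 0.31).

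Separation of the groups was counted for every member. In 4 of the 56 (7.14%) all CD73 siRNA samples were above all controls, namely E2F1, E2F8, RBL2 and TIPIN, where 10.3% of all tested genes were so placed. In 5 of the 56 (8.93%) all were below, namely E2F3, RB1, MCM7, ORC2 and ORC6, where 8.07% of all tested genes were. Both shares were near those of all tested genes. Each of these 9 had p = 0.1 in the two-sided exact permutation test, the smallest value that 3 samples against 3 allow.

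Samples of the same number deviated together, and differences were therefore also taken within each number. In 10 of the 56 (17.9%) the CD73 siRNA sample was higher in all 3 pairs, against 27.0% of all tested genes, and in 12 (21.4%) it was lower in all 3, against 24.5%. The first group held E2F1 (0.66, 0.19 and 0.53 on the log2 scale in pairs 1 to 3) and TIPIN (0.92, 0.27 and 0.14). The second held RB1 (-0.67, -0.46 and -0.36) and MCM7 (-0.34, -0.15 and -0.13). Pair 1 gave the largest absolute difference in 35 of the 56 genes (62.5%), as it did in 58.9% of all tested genes, and pair 2 in 6. NT5E also differed most in pair 1 (-1.78, against -0.92 and -0.98), and whether the size of the knockdown bears on the members was not tested.

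**Figure D4:**
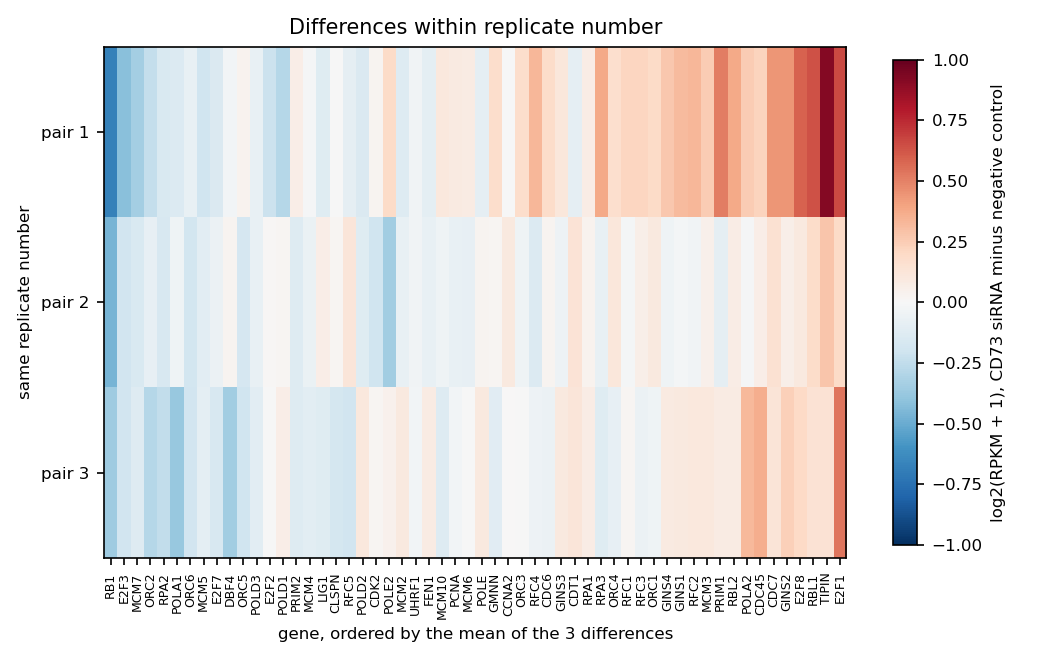
Differences on log2(RPKM + 1), CD73 siRNA minus negative control, within replicate numbers 1 to 3 (rows) for the 56 genes (columns, ordered by their mean). RB1, at the left, is lower in all 3 pairs (-0.67, -0.46 and -0.36), E2F1, at the right, is higher in all 3, and the strongest colours are those of pair 1.

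The genes around these 56 were described by lists, all adjusted over every tested gene. For every list below, the shares of all tested genes to set beside its counts are these. Called higher were 1.82% and lower 1.31%, and with the replicate block 4.27% and 3.30%. Under an unadjusted p of 0.05 in limma they were 7.22% and 4.90%. Of 35 further replication factors, 34 were tested, with a median log2 difference of -0.04, 1 called lower and 0 higher. With the replicate block 2 were called lower and 0 higher, and under an unadjusted p of 0.05 in limma 3 were higher and 2 lower. The gene called lower without the block was POLE3, a histone-fold subunit of polymerase ε, at 33.0, 40.8 and 31.1 RPKM after CD73 siRNA and 54.8, 51.8 and 45.7 RPKM in the controls, a log2 difference of -0.53 (95% interval -0.83 to -0.23, adjusted p = 0.303 in limma). Of the E2F partners, further E2Fs and members of the DREAM complex, 12 of 13 were tested and 0 were called in limma at an unadjusted p below 0.01 in either direction (median 0.01), with 0 higher and 0 lower under 0.05. The same held for all 26 classical E2F targets outside the replisome, which include the genes for cyclin E, thymidylate synthase and ribonucleotide reductase (median 0.005), with 2 higher and 0 lower under 0.05. With the replicate block, 1 of these 26 was called lower.

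The list of G1 inputs to RB held the cyclins D, their kinases, the CDK inhibitors, SKP2 and MYC. Of its 13 genes 11 were tested, with a median log2 difference of -0.28, 4 called lower and 0 higher, and 1 higher and 5 lower with the replicate block. Over all tested genes 1.31% were called lower and 1.82% higher, and 4.27% higher and 3.30% lower with the block. Its members did not share a direction. CDK6, a cyclin D kinase, had the highest difference (0.64, not called), and the CDK inhibitor genes CDKN2D (0.33) and CDKN2C (0.11) were also above 0, while the other kinase gene, CDK4, was at -0.06. CCND1, the cyclin D1 gene, was at 75.5, 76.9 and 72.1 RPKM after CD73 siRNA and 180.2, 103.7 and 129.0 RPKM in the controls. SKP2, of the ubiquitin ligase that degrades p27, was at 6.87, 6.72 and 9.18 RPKM against 19.0, 13.0 and 18.0 RPKM. The CDK inhibitor genes CDKN1A (p21) and CDKN1B (p27) were called in the same direction, with log2 differences of -0.80 (95% interval -1.22 to -0.38) and -0.43 (95% interval -0.70 to -0.16). This list was known from earlier results to hold lower genes, and each of the 4 had an adjusted p of at least 0.303 in limma.

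Of 30 mitotic genes, which follow the replication genes in the cell cycle, all were tested and the median log2 difference was 0.06. KIF11, the spindle motor (-0.55, 95% interval -0.80 to -0.29), and CDCA8, encoding borealin (-0.43, 95% interval -0.71 to -0.15), were called lower. Their adjusted p in limma was 0.303 and 0.305. BIRC5, encoding survivin, was called higher (0.48, 95% interval 0.15 to 0.82) only at the edge of the threshold. Its unadjusted p in limma rounds to 0.01, with an adjusted p of 0.319. With the replicate block BIRC5 was not called, at an unadjusted p in limma of 0.0111. CDCA8 and BIRC5 encode partners in the chromosomal passenger complex and lay in opposite directions.

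**Figure D5:**
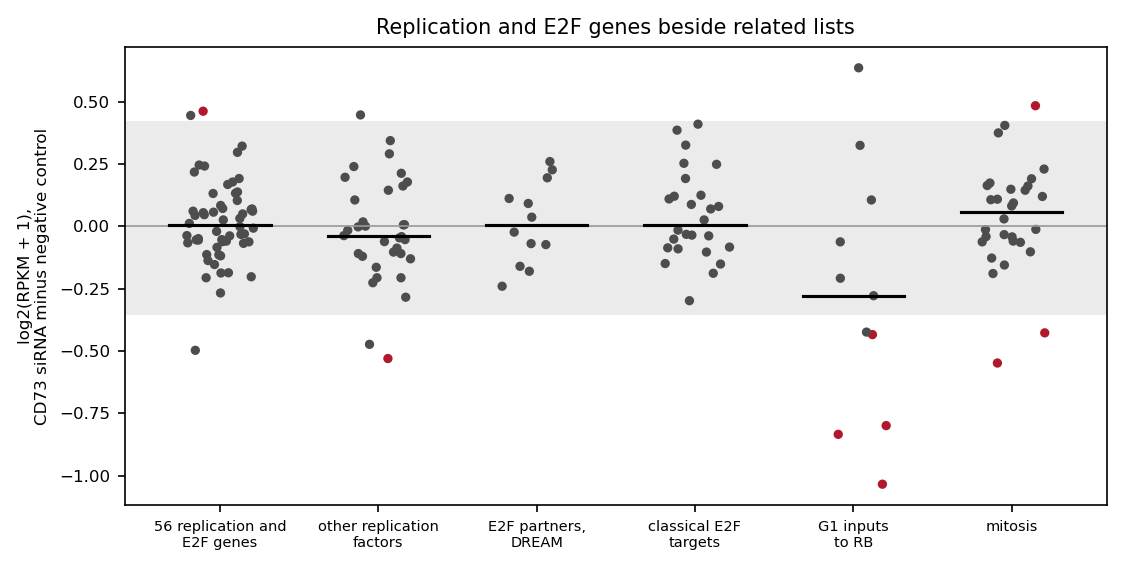
Log2 differences (CD73 siRNA minus negative control) of the 56 genes and of 5 related lists, with 1 point per tested gene, red where the unadjusted p is below 0.01, and a bar at the median. The grey band spans the 5th to 95th percentile of all tested genes (-0.35 to 0.42), and the 4 called genes among the G1 inputs to RB lie below it.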

How the data were processed

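RNA-seq of 3 CD73 siRNA and 3 negative control samples was used, 1 file per sample. The authors deposited values that they had normalized to exon length and library total, read here as RPKM although no source used here names the unit. This rests on the values, which, multiplied by GENCODE 29 exon lengths, were whole multiples of 1 step per sample for 95.06% to 95.17% of genes under 1000 reads (tolerance 0.02 reads), and the step also gave library totals. The submitters' processing notes name bcl2fastq, Bowtie2 2.2.3, HTSeq 0.6.0 and hg38. The annotation, strand and multi-mapping settings are not given in the sources used here. Of the identifiers, 132 were absent from GENCODE 29, and 30384 had a symbol in the name table. Coordinates are those of GENCODE 29.

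The 12527 genes that reached 1 RPKM in 3 or more samples were compared on log2(RPKM + 1) with limma 3.58.1 with a trend (R 4.3.3). Its p-values were adjusted by Benjamini-Hochberg, and the fit was checked on simulated data. Adding 1 understates differences of low genes. Intervals are 95% intervals of limma's moderated test. Alternatives were a pseudocount of 0.1, no filter, a replicate block, median-ratio rescaling, no trend and leaving out each sample. The deviations of same-numbered samples from their group mean correlated at 0.197, 0.481 and 0.553, so the numbers were taken to pair the samples. Those of other numbers were at -0.006 or below. Deviations sum to 0 within a group, so these lower values are largely forced and add no separate evidence. The paper calls the samples separate knockdown experiments. If they were not separate cultures, p-values measure technical spread.

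The members and lists were chosen with earlier results of these data known. Values in every sample are given for members past an unadjusted p of 0.01 in either fit, for the smallest p and highest level of each role, and for a fixed set (PCNA, CDC6, CDT1, CCNA2, CDK2, UHRF1 and the E2F and RB genes). GINS2 was added after its values were seen. Of other lists, genes past an unadjusted p of 0.01 in the fit without the block are named, and those called only with the block are counted. RefSeq promoter windows (GRCh38.p14) were not held for MCM4, MCM5, RPA2, RPA3, POLD3, GINS4, E2F8 and CDK2.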

Additional observations from a re-analysis of the deposited data

How the results depend on the processing

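Over 11 alternatives, none of the values of single genes that were called changed sign, and 6 of 627 moved across the threshold. They were the 4 of E2F1 and that of RB1 given in the report, and E2F3 without the filter (-0.27, unadjusted p = 0.00926 in limma). The count of members called lower was 0 and became 1 without the filter and 1 with the replicate block, and the block changed no other call of a member. The count called higher ranged from 0 to 1 when 1 sample was left out. Over all tested genes 392 were called, 948 with the replicate block, and 116 to 792 when 1 sample was left out (116 without CD73 siRNA replicate 1, 188, 792 and 258 without control replicates 1, 2 and 3). The members' median stayed between -0.016 and 0.024. Counts within pairs were not computed with a sample left out. Uncalled values had another sign in 43 cases, all with a difference of at most 0.114 in size. The intervals cover the spread between these 6 samples only.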

Other observations

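The ratio of E2F1 to RB1, in RPKM and formed after the values of both were seen, was 5.35, 3.42 and 3.89 in CD73 siRNA replicates 1 to 3 and 2.0, 2.11 and 2.04 in the negative controls. The means were 4.22 ± 1.01 and 2.05 ± 0.06 (SD, n = 3 each). Every CD73 siRNA sample was above every control in E2F1 and below every control in RB1. The gap in the ratio was thus fixed by the choice of these genes and adds no evidence. The controls, whose E2F1 and RB1 levels each differed between samples, were close to each other in this ratio. That closeness rests on 3 samples, and no test was made of it.

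Members with and without an E2F word in the promoter window were set side by side. The 21 with a word had a median log2 difference of 0.05 (-0.19 to 0.46, 14 above 0), and the 20 without had 0.01 (-0.20 to 0.22, 10 above 0). This is a description with no test, and RB1, E2F3 and E2F8 are in neither group, since no window at a principal start was held for them.

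Negative control replicate 1 was the lowest of the 6 samples in 19 of the 56 genes (33.9%, against 26.1% of all tested genes) and the highest in 14 (25.0%, against 22.1%). It was the lowest for E2F1, E2F8, RBL1, RBL2, CDC7, GINS2 and TIPIN and the highest for E2F3, E2F2, E2F7 and MCM7.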
